A study of Mus musculus with 82 samples.

Results

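The 42 interferon-stimulated genes described here are genes that cells switch on after they sense interferon or viral nucleic acid. They were taken as a fixed list of gene names and were all found among the 47480 genes of the count table. RNA was measured by sequencing in 82 libraries from untreated mouse mammary tumours of 13 models, described by the submitters as individual tumours with biological replicates. The BALB/c models were 2208 (n = 12), 2250 (n = 11), 2225 (n = 10), 2153 (n = 7), 9263 (n = 7), 2336 (n = 5), 4T1 (n = 5), 2224 (n = 4) and T12 (n = 3). The FVB models were MMTV-NEU (n = 8), MMTV-PYMT (n = 5) and KPB1-A (n = 2), and the C57BL/6 model was E0771 (n = 3). All groups share the lack of treatment. The labels give no age, genotype or host for any group beyond the model names and the strain. In MMTV-NEU and MMTV-PYMT the names refer to oncogenes under the mouse mammary tumour virus promoter, which is active in mammary epithelium, while 4T1 and E0771 are the names of transplantable mouse mammary tumour lines. Strain is nested in model, so strain and model cannot be told apart, and no untreated normal mammary gland was analysed here.

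Library totals ran from 14444895 to 132712453 counts. In 81 of the 82 libraries the closest library belonged to the same model, the exception being MMTV-PYMT replicate 5, whose closest library was an MMTV-NEU one. Markers of mammary epithelium summed to 1720 CPM or more in every library of 11 models and to 236 to 469 CPM in T12 and E0771. Markers of skeletal muscle summed to over 1000 CPM in 9 of the 82 libraries, including MMTV-PYMT replicate 5, MMTV-NEU replicate 6 and 2 of the 3 E0771 libraries. Levels below are counts-per-million values (CPM) after TMM scaling of the library totals, given as mean ± SD over libraries. CPM is not corrected for gene length, so levels are compared across libraries of a gene and not between genes.

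Type I and type III interferons act through a complex of transcription factors that includes STAT2 and IRF9 and binds the interferon-stimulated response element (ISRE) in promoters. Type II interferon (interferon gamma) acts mainly through another element, the gamma-activated site (GAS). The products then act on viral RNA and proteins, sense nucleic acid or feed back on the pathway. In tumours such genes can be expressed by the cancer cells and by infiltrating cells, and in bulk tissue fewer cells of a type and less RNA per cell cannot be told apart.

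The promoters were read apart from the expression values. RefSeq windows (GRCm38.p6) from 250 bases before to 50 bases after the gene start were found for 32 of the 42 genes. A core ISRE, searched on both strands as 2 copies of GAAA with 2 bases of any kind between them, stood in the windows of 19 of these 32 genes (59.4%), against 3.99% of all 27025 genes with a window. A core GAS, TTCNNNGAA, stood in 9 of 32 genes (28.1%) against 9.55% of all genes. All 6 matched GTPase genes held an ISRE, 3 of the 6 IFIT and IFI44 genes did, and neither Parp12 nor Dtx3l did. A match describes these letters and is not a mapped binding site. The 8 stretches below are shown since they carry the matches of genes whose levels are followed in the text or resemble one another. Capitals mark the matched core letters, with overlapping matches run together, and each stretch is read on the strand of its gene and ends before the gene start that RefSeq gives. For Irgm2 that start lies inside the longer span of the gene in GENCODE M21 (58199618 to 58222782).
Isg15, chr4:156200856-156200915, minus strand: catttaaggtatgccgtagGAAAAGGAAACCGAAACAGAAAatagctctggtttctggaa
Ifit1, chr19:34640770-34640828, plus strand: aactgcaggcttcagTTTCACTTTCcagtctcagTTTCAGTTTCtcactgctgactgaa
Ifit3, chr19:34583365-34583424, plus strand: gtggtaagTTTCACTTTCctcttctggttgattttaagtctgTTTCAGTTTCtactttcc
Oas3, chr5:120777700-120777759, minus strand: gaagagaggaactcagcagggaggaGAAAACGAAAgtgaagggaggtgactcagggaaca
Rsad2, chr12:26456538-26456597, minus strand: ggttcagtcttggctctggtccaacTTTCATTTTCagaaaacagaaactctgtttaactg
Bst2, chr8:71537568-71537627, minus strand: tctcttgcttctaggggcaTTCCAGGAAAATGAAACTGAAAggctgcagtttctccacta
Igtp, chr11:58199492-58199550, plus strand: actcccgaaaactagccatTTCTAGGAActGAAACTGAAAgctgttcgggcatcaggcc
Irgm2, chr11:58214883-58214941, plus strand: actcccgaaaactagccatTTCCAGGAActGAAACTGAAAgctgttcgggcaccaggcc

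Isg15 carried 3 overlapping ISRE matches in a row, and Ifit1 and Ifit3 carried 2 separate ones each, read as copies of TTTC since the match lies on the opposite strand. In Bst2 a GAS match ran directly into 2 ISRE matches. The Igtp and Irgm2 stretches, both 59 bases long, differed at 2 positions and each held a GAS match followed by an ISRE match. Igtp and Irgm2 overlap on chromosome 11 in the annotation, and reads of such neighbours cannot be told apart where they overlap.

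All 42 genes differed among the 13 models by the F test of edgeR at an adjusted p under 0.05, against 98.2% of the 22847 genes tested, so this count is near the background. The highest model mean exceeded the lowest by 4.79-fold for Ifitm3, 123-fold for Ifit1 and 670-fold for Ifit3b. The lowest mean of Ifit3b, 0.0773 CPM, rests on few counts, so its fold is imprecise. The models formed an order that most of the genes shared. E0771 had the highest mean for 26 of the 42 genes, MMTV-PYMT for 8, 2250 and 9263 for 3 each, and MMTV-NEU and T12 for 1 each. The lowest mean lay in 2336 for 17 genes, in KPB1-A for 13, in 2225 for 10 and in 2224 for 2. These 4 models were among the lowest 4 for 40 (2224, 2225 and 2336) and 37 (KPB1-A) of the 42 genes. For each gene, at least 9 of the 12 pairs of models next to each other in the order had library ranges that overlapped. All 12 pairs overlapped for 15 genes, and the other 27 had 1 to 3 steps at which the library ranges lay apart. These steps were not counted over all genes tested, so the counts cannot be read as particular to the 42.

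**Figure D1:**
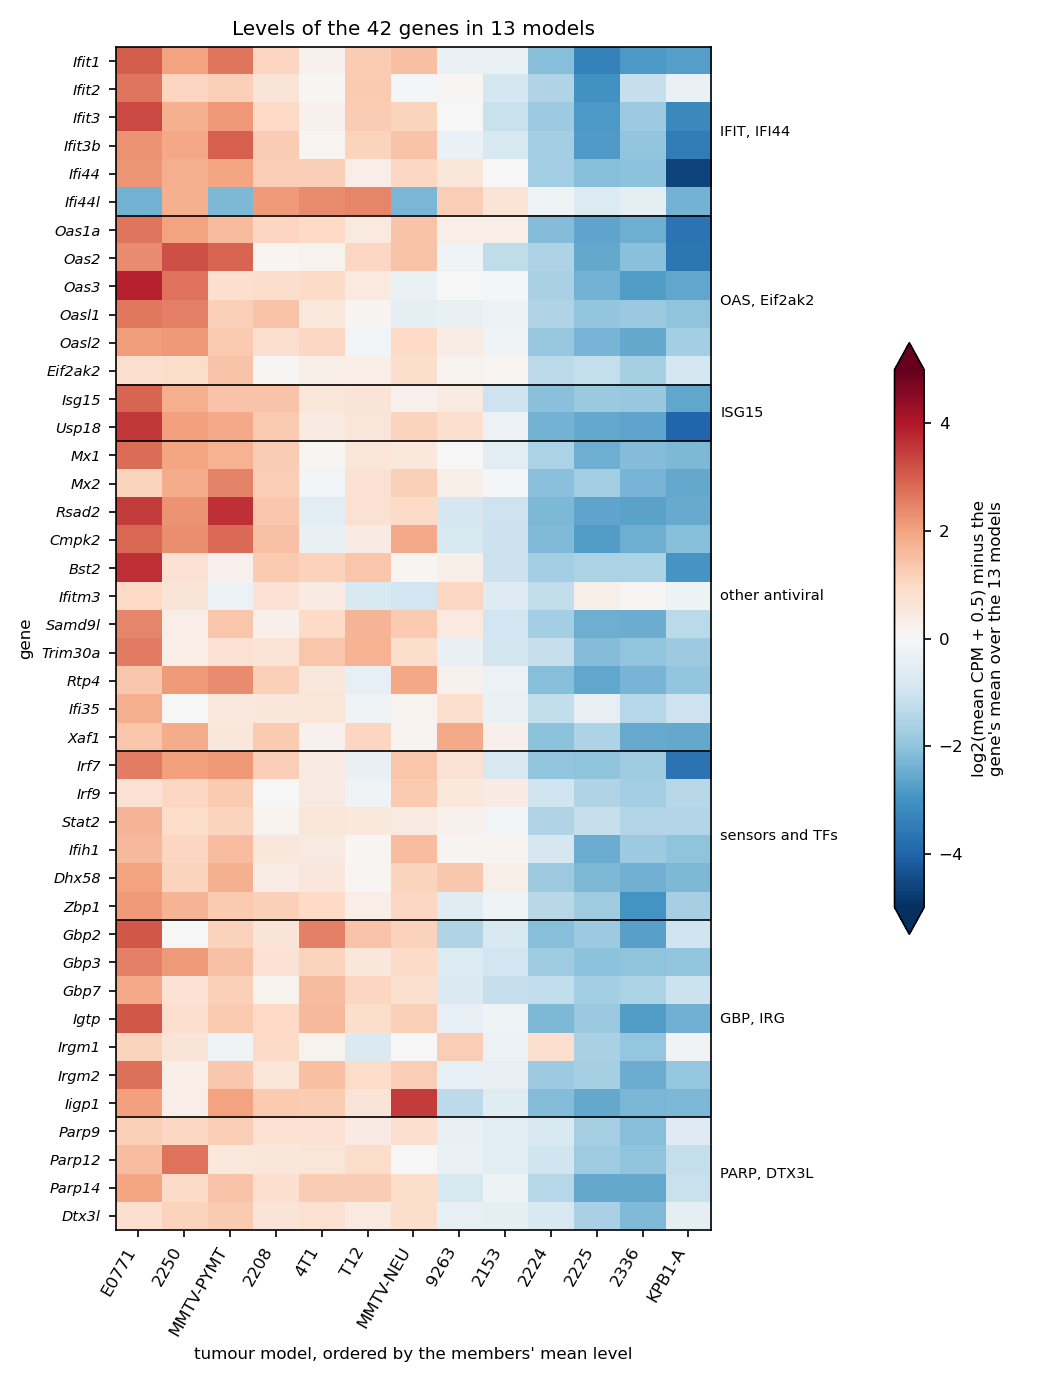
Heat map of the 42 genes (rows, grouped by role) in 13 models (columns, ordered by the genes' mean level). Colour is the log2 of the model's mean CPM plus 0.5, minus the gene's mean over models. The columns 2224, 2225, 2336 and KPB1-A are blue for most rows, E0771 is red for most, and Ifi44l, Ifitm3 and Irgm1 break the pattern.

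**Figure D2:**
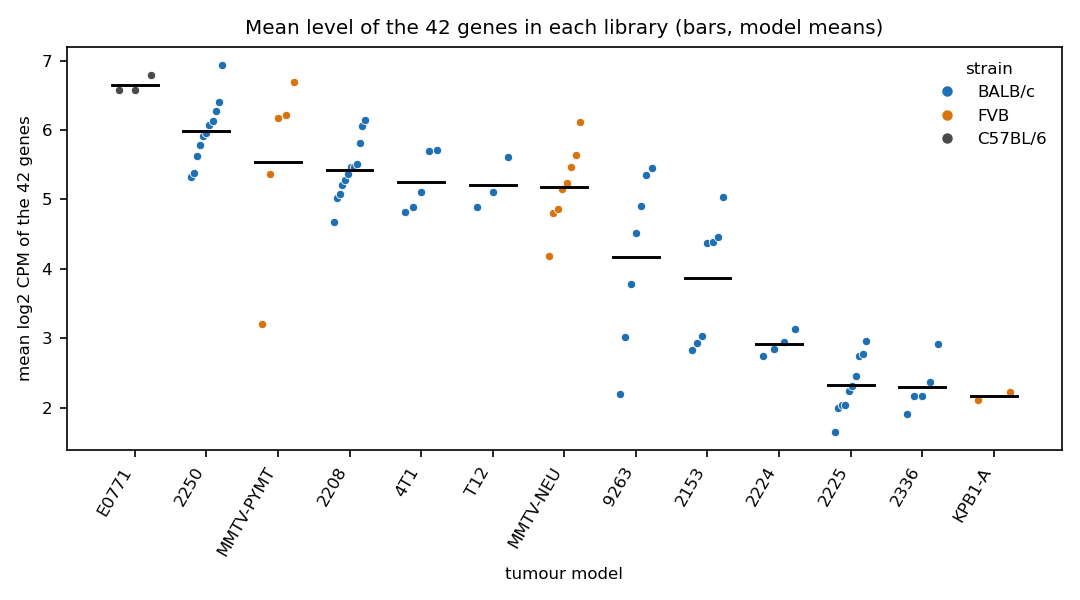
Mean log2 CPM of the 42 genes in each of the 82 libraries (points, sorted within a model, coloured by strain) with model means as bars. E0771 libraries lie at 6.57 to 6.80 and KPB1-A libraries at 2.12 to 2.23, while 2153, 9263 and MMTV-PYMT span wide ranges.

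The mean log2 CPM of the 42 genes gives a similar order as a single number per library, with E0771 highest and the same 4 models lowest. By median rank over the genes, MMTV-NEU (5) stood above 4T1 and T12 (6 each), and KPB1-A (11) above 2225 and 2336 (12 each). This mean includes Ifi44l, which was at or near 0 in all FVB and C57BL/6 libraries, so close values from different strains do not rank the models. It was 6.65 ± 0.13 in E0771, 5.98 ± 0.47 in 2250, 5.53 ± 1.38 in MMTV-PYMT, 5.43 ± 0.42 in 2208, 5.25 ± 0.43 in 4T1, 5.2 ± 0.37 in T12 and 5.18 ± 0.59 in MMTV-NEU. It was 4.17 ± 1.23 in 9263 and 3.87 ± 0.90 in 2153, and then 2.92 ± 0.16 in 2224, 2.32 ± 0.41 in 2225, 2.31 ± 0.38 in 2336 and 2.17 ± 0.08 in KPB1-A. The highest library of 2224, 2225, 2336 and KPB1-A reached 3.13. Outside these 4 models, MMTV-PYMT replicate 5, 3 libraries of 2153 and 2 libraries of 9263 had 3.21 or less, and the next library had 3.78.

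Each model was next compared with the unweighted mean of the other 12 models, in 1 edgeR fit over all libraries. Differences are on the log2 scale ± SE with Benjamini-Hochberg adjusted p from that fit. The 13 comparisons share libraries, since each model is in the reference of the others. The median difference over all genes tested lay within 0.11 of 0 in each comparison.

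E0771 had the broadest rise. In E0771, 41 of the 42 genes were higher and none was lower, where 29.4% of all genes tested were higher and 26.9% lower, and the median difference of the 42 was 2.59. The exception was Ifi44l, treated below. Bst2 (tetherin, which holds budding virus at the cell surface) stood at 530, 548 and 539 CPM in the 3 E0771 libraries. The next model mean was 112 ± 24 CPM in T12, and the highest single library elsewhere had 240.5 CPM in 2208, so E0771 did not overlap with any other model. The log2 difference of Bst2 was 4.00 ± 0.23 (adjusted p = 3.33e-25). Of the 32 tested genes within 500 kb of Bst2, 20 were also higher in E0771 and 1 was lower, among them B3gnt3 (3.56 ± 0.28, adjusted p = 4.49e-19) and Colgalt1 (1.91 ± 0.06, adjusted p = 9.07e-40), and the part of the region in the level of Bst2 was not tested. Oas3, an oligoadenylate synthetase that activates RNA decay by RNase L, had 158, 110 and 146 CPM and differed by 4.40 ± 0.34 (adjusted p = 4.83e-19). Usp18, which removes ISG15 from proteins and dampens interferon receptor signalling, had 169, 106 and 135 CPM and differed by 4.10 ± 0.33 (adjusted p = 2.05e-18). Isg15, the ubiquitin-like modifier itself, stood at 147, 135 and 132 CPM, above all libraries of the other models, whose highest was 113 CPM in 2208. Irf7, the factor that amplifies type I interferon genes, had 335, 338.5 and 272.5 CPM, within the range of MMTV-PYMT (39.6 to 427 CPM). Muscle markers summed to 564 to 3330 CPM in the 3 E0771 libraries, and their part in these values was not tested.

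In 2250, 36 of the 42 genes were higher and none was lower, against 32.1% and 27.7% of all genes tested, with a median difference of 1.94. All 6 genes each of the OAS, the IFIT and IFI44, and the sensor and transcription factor groups were higher, with median differences of 2.60, 2.19 and 1.24, as were 4 of the 7 GTPase genes, with a median of 0.72. Oas2 ran from 63.2 to 362 CPM with a median of 145.5 CPM in the 11 libraries of 2250, a difference of 3.65 ± 0.29 (adjusted p = 1.79e-18), and Oas3 differed by 3.13 ± 0.25 (adjusted p = 3.46e-18). Parp12, a mono-ADP-ribosyltransferase that restricts viral translation, was highest in 2250 at 384 ± 110 CPM. Its 11 libraries ran from 192.5 to 593 CPM, above all libraries of the other 12 models, whose highest was E0771 replicate 1 at 178 CPM. The difference was 2.97 ± 0.14 (adjusted p = 1.23e-30). Gbp2, a guanylate-binding GTPase that attacks the vacuoles of intracellular microbes, did not pass in 2250 (26.8 ± 10.2 CPM, -0.01 on the log2 scale), nor did Irgm2 (0.41), Iigp1 (0.41), Trim30a (0.41), Samd9l (0.41) or Ifi35 (0.04).

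In 2208, 36 of the 42 genes were higher and none was lower, against 29.4% and 24.7% of all genes tested, with a smaller median difference of 1.08. The largest fitted differences besides Ifi44l were those of Ifit3b and Cmpk2. Ifit3b, a tetratricopeptide-repeat protein of the IFIT family, differed by 1.78 ± 0.31 (adjusted p = 8.22e-07). Cmpk2, a mitochondrial nucleotide kinase, differed by 1.74 ± 0.23 (adjusted p = 4.11e-10). Both models were then set against each other. In 2250 relative to 2208, 17 of the 42 genes were higher and 2 lower, against 27.4% and 26.6% of all genes tested. All 6 genes of the OAS group including Eif2ak2 (PKR, the RNA-activated kinase) were higher in 2250, 5 of the 6 sensors and transcription factors were, and 1 of the 7 GTPases was. Oas2 was 16.8 ± 7.55 CPM in 2208 (7.45 to 37 CPM) and did not overlap with 2250, with a difference of 3.17 ± 0.45 (adjusted p = 4.98e-09). Parp12 (2.16 ± 0.21, adjusted p = 2.19e-14), Oas3 (1.85 ± 0.38, adjusted p = 2.02e-05), Gbp3 (1.44 ± 0.33, adjusted p = 1.21e-04) and Oasl2 (1.34 ± 0.34, adjusted p = 5.32e-04) followed. Bst2 was lower in 2250 than in 2208 (-0.57 ± 0.25, adjusted p = 0.0459), as was Ifi35 (-0.56 ± 0.15, adjusted p = 0.00144). The Bst2 call was lost without the muscle-rich libraries (-0.42).

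The FVB models MMTV-NEU and MMTV-PYMT carried high levels of most of the genes. In MMTV-PYMT, 37 of the 42 genes were higher and none was lower (31% and 20.5% of all genes tested), and the median difference was 1.52. In MMTV-NEU, 31 were higher and 1 was lower (34% and 28.4% of all genes tested), and the median was 1.09. Rsad2 (viperin, which makes a chain-terminating nucleotide) had 69.2, 772, 203, 79.4 and 3.64 CPM in MMTV-PYMT replicates 1 to 5. Replicate 2 was the highest value of this gene in any library and replicate 5 lay with the low models, and the difference from the other models was 4.05 ± 0.33 (adjusted p = 1.58e-17). Ifit3b (3.70 ± 0.36, adjusted p = 2.26e-14) and Oas2 (3.29 ± 0.35, adjusted p = 6.77e-13) followed. In MMTV-NEU the gene that stood out was Iigp1, an immunity-related GTPase that disrupts parasite vacuoles, at 106 to 905 CPM with a median of 256 CPM over 8 libraries. Other models averaged at most 115 CPM (E0771), and the difference was 3.87 ± 0.33 (adjusted p = 2.19e-17). Cmpk2 (2.19 ± 0.25, adjusted p = 4.73e-12) and Rtp4, a chaperone of receptors (2.13 ± 0.23, adjusted p = 6.69e-13), came next. Ifitm3, a membrane protein that blocks fusion of entering virus, was lower in MMTV-NEU (124 ± 96 CPM, -1.03 ± 0.23, adjusted p = 7.01e-05), but not against the other FVB models alone (-0.68).

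Set directly against each other, MMTV-PYMT had 8 of the 42 genes higher than MMTV-NEU and none lower, where 15.1% of all genes tested were higher and 12.5% lower, so the share is near the background. Rsad2 (2.71 ± 0.55, adjusted p = 8.66e-05), Oasl1 (1.75 ± 0.45, adjusted p = 0.00196), Ifit3b (1.60 ± 0.57, adjusted p = 0.0283), Oas2 (1.51 ± 0.56, adjusted p = 0.033) and Mx2 (1.33 ± 0.45, adjusted p = 0.0212) had the largest differences. This count rested on single libraries. Without MMTV-PYMT replicate 5 it was 20, without MMTV-PYMT replicate 2 it was 2 with 1 gene lower, and without the 9 muscle-rich libraries it was 23. The shares of all genes tested were not kept for these refits, so these counts cannot be set against a background.

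4T1 and T12 had smaller and less even rises. In 4T1, 23 of the 42 genes were higher and none was lower, against 25.5% and 23.6% of all genes tested, with a median of 0.67. There 6 of the 7 GTPases and all 4 PARP and DTX3L genes were higher, as were 2 of the 6 IFIT and IFI44 genes (Ifi44 and Ifi44l), and neither Isg15 (0.71) nor Usp18 (0.68) passed. Gbp2 had 80.7, 119, 332, 139 and 135 CPM in the 5 libraries of 4T1, of which replicate 3 was the highest, and differed by 2.80 ± 0.29 (adjusted p = 3.85e-13). Replicate 3 was also high for Iigp1 (205 CPM against 20.8 to 43.8 CPM in the other 4 libraries) but not for Ifit1 (22.1 CPM within 11.2 to 29.1 CPM). Igtp, another GTPase of that family, rose by 1.82 ± 0.31 (adjusted p = 5.34e-07). In T12, 16 genes were higher and 2 lower, against 24.4% and 23.8% of all genes tested, with a median of 0.75. Trim30a (1.95 ± 0.38, adjusted p = 1.27e-05) and Samd9l, a translation inhibitor (1.88 ± 0.30, adjusted p = 1.56e-07), were the largest rises besides Ifi44l. T12 replicate 1 had 66.4 CPM of Ifit1 against 26.8 and 20.9 CPM in replicates 2 and 3. Without T12 replicate 1 the number of higher genes was 9, and against the other BALB/c models alone it was 29. The shares of all genes tested were not kept for these refits. Both genes that were lower in T12, Ifitm3 (-0.84) and Irgm1 (-0.80), passed narrowly (adjusted p = 0.0456 and 0.0473) and were lost under several other settings.

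The 4 low models were 2224, 2225, 2336 and KPB1-A. In 2225, 40 of the 42 genes were lower and none higher (26.8% and 34.2% of all genes tested), with a median of -2.29. In 2336, 40 were lower and 1 higher (25.4% and 30.2%), with a median of -2.38. In 2224, 40 were lower and 2 higher (14.8% and 24%), with a median of -1.85. In KPB1-A, 34 were lower and none higher (14.4% and 24.9%), with a median of -2.31. Without KPB1-A replicate 1, 22 were lower, and the share of all genes tested was not kept for that refit. Ifit1, which binds RNA that lacks the host cap methylation, ran from 0.512 to 2.20 CPM in the 10 libraries of 2225, with a difference of -4.13 ± 0.45 (adjusted p = 6.12e-13). It had 1.48, 1.31, 1.04, 2.82 and 1.70 CPM in 2336 (-3.37 ± 0.59, adjusted p = 9.46e-07), 2.78, 3.68, 2.97 and 3.31 CPM in 2224, and 2.58 and 1.16 CPM in KPB1-A. All libraries of E0771, 2250 and 2208 had 14.2 CPM or more and lay above these. In 2225, Ifit3b (-3.79 ± 0.50, adjusted p = 5e-10) and Ifit2 (-3.56 ± 0.32, adjusted p = 3.09e-16) were also among the largest decreases. In 2336, Oas3 (-3.55 ± 0.57, adjusted p = 1.80e-07) and Zbp1, a sensor of left-handed nucleic acid that can start necroptosis (-3.49 ± 0.47, adjusted p = 1.57e-09), fell most. In 2224, Usp18 (-2.69 ± 0.55, adjusted p = 4.53e-05), Mx2 (-2.63 ± 0.54, adjusted p = 4.71e-05) and Cmpk2 (-2.58 ± 0.52, adjusted p = 3e-05) did. In KPB1-A, Ifit3b (-6.41 ± 1.36, adjusted p = 7.15e-05), Ifi44 (-5.73 ± 0.91, adjusted p = 2.31e-07) and Usp18 (-5.69 ± 1.01, adjusted p = 2.68e-06) did, and Usp18 was 0.26 and 0.257 CPM in its 2 libraries. Ifit3b rested on few counts in KPB1-A, so the size of its difference is imprecise.

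The low models were not low for every gene. Ifitm3 did not pass in 2225 (292 ± 105 CPM, 0.31 on the log2 scale), in 2336 (250.2 ± 56.8 CPM, 0.07) or in KPB1-A (200.3 ± 37.6 CPM, -0.28), and its lowest model mean was 101 ± 9.9 CPM in 2224. Irgm1, a GTPase that regulates the other immunity-related GTPases, was higher in 2224, with 165 to 196 CPM in its 4 libraries (0.92 ± 0.25, adjusted p = 0.00202), although this call was lost without the muscle-rich libraries (0.84). Irgm1 was also higher in 9263 (227 ± 51.8 CPM, 1.32 on the log2 scale). In KPB1-A, Ifit2 (-0.35), Gbp2 (-1.09), Gbp7 (-1.20), Irgm1 (-0.20), Parp9 (-0.72) and Dtx3l (-0.54) did not pass. The gap between the low models and the rest was set out directly for 2250 against 2225. There 41 of the 42 genes were higher in 2250 and none lower, against 30.2% and 31.8% of all genes tested, with a median difference of 3.67. Oas2 (6.15 ± 0.56, adjusted p = 5.98e-16), Ifit1 (5.93 ± 0.52, adjusted p = 8.73e-17), Ifit3b (5.82 ± 0.58, adjusted p = 1.93e-14), Cmpk2 (5.64 ± 0.43, adjusted p = 2.02e-19) and Oas3 (5.52 ± 0.48, adjusted p = 8.94e-17) differed most, and Ifitm3 (0.35) did not pass.

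9263 and 2153 lay between. In 9263, 11 of the 42 genes were higher and 7 lower, against 32.5% and 21.9% of all genes tested, with a median of 0.12. Both counts were near or under the background. Xaf1, a pro-apoptotic partner of XIAP, ran from 22.9 to 361 CPM with a median of 74.3 CPM in 9263 and differed by 2.12 ± 0.24 (adjusted p = 1.95e-12). The value of 361 CPM was that of replicate 1, and the next library had 93.8 CPM. Dhx58 (LGP2, which tunes the RNA sensors) rose by 1.53 ± 0.19 (adjusted p = 5.5e-11), and Gbp2 (-1.66 ± 0.38, adjusted p = 1.40e-04), Iigp1 (-1.44 ± 0.48, adjusted p = 0.00865) and Parp14 (-0.87 ± 0.26, adjusted p = 0.00311) fell. Against the other BALB/c models alone, 18 genes were higher in 9263 and 1 was lower. In 2153, 2 of the 42 genes were higher and 18 lower, against 29.4% and 23.6% of all genes tested, with a median of -0.39. The 2 higher genes were Ifi44l and Irf9, the DNA-binding partner of STAT2 (0.44 ± 0.13, adjusted p = 0.00429). Oas2 (-1.38 ± 0.46, adjusted p = 0.00822), Gbp7 (-1.28 ± 0.30, adjusted p = 1.67e-04) and Ifit3 (-1.21 ± 0.45, adjusted p = 0.019) fell most. Against the other BALB/c models alone, 5 genes were higher and 6 lower in 2153. The shares of all genes tested given for 9263 and 2153 do not apply to these same-strain counts, for which none were kept.

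The gene groups did not move in equal measure. To compare them across models, the mean log2 CPM of the IFIT genes and Ifi44 was subtracted from that of the 7 GTPase genes in each library, and only differences of this value between models are read, since CPM carries gene length. It was lowest in 2250 (0.06 ± 0.21), MMTV-PYMT (0.46 ± 0.90) and E0771 (0.72 ± 0.59) and highest in 4T1 (1.97 ± 0.64), 2225 (2.33 ± 0.39) and KPB1-A (3.11 ± 0.02). In 2250 the highest library (0.34) lay below the lowest library of 2208 (0.42), 2225 (1.79), MMTV-NEU (0.54) and 4T1 (1.31). KPB1-A and 2336 had similar means of the 42 genes but differed in this value, at 3.10 to 3.13 against 0.59 to 0.98. The KPB1-A value includes Ifit3b, which rested on few counts there.

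**Figure D3:**
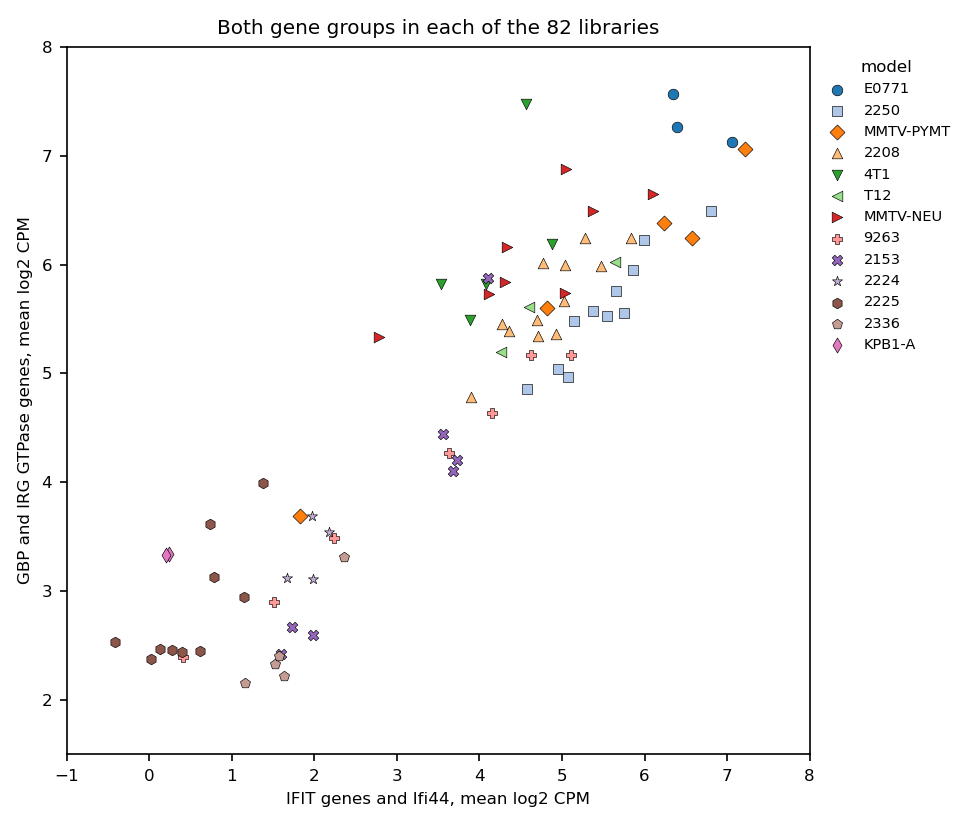
Mean log2 CPM of the 7 GBP and IRG GTPase genes (vertical axis) against that of the IFIT genes and Ifi44 (horizontal axis) in 82 libraries, with a marker for each model. Libraries of 2250 lie to the right of those of 2208, 4T1 and MMTV-NEU at similar GTPase levels, and KPB1-A lies to the left of 2336.

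Ifi44l departed from all other genes of the list. It lies on chromosome 3 (151758737 to 151762892, mm10, GENCODE M21) next to Ifi44 (151730922 to 151749960), and both encode proteins of little known function that interferon induces. Ifi44l had 0.207 to 23.1 CPM, with 21 counts or more, in all 64 BALB/c libraries. In the 18 FVB and C57BL/6 libraries it had at most 0.157 CPM, with 25 counts in all, and it was at 0 in 10 of them, including all 3 E0771 libraries, for which 3 counts over the summed depth would be 0.0149 CPM. The ranges of the strains thus did not overlap, which held for 24 of the 22847 genes tested (0.105%) and for no other gene of the list. The opposite, with all BALB/c libraries below the others, held for 10 genes tested (0.0438%) and for none of the list. Ifi44 was not split in this way, at 3.1 to 191 CPM in BALB/c, 0.615 to 194 CPM in FVB and 102 to 175 CPM in E0771. Ifi44l is among the genes counted as higher in all BALB/c models except 2225 and was the 1 higher gene of 2336. Its fitted differences depend on models at or near 0 and are not given.

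**Figure D4:**
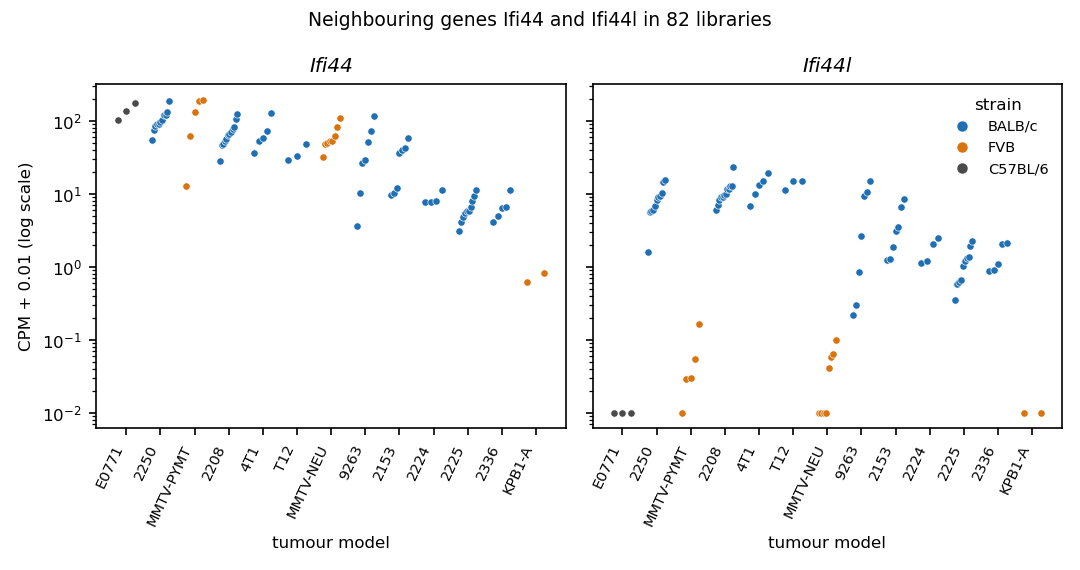
Levels of the neighbouring genes Ifi44 and Ifi44l in each library (CPM plus 0.01, log scale), by model and coloured by strain. Ifi44l lies at 0.207 CPM or more in all BALB/c libraries and at 0.157 CPM or less in the others, while Ifi44 is high in E0771, MMTV-PYMT and MMTV-NEU.

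Among libraries of a model the 42 genes varied more than most genes. The pooled SD of log2 CPM within models had a median of 0.81 over the 42 genes against 0.50 over all genes tested, and 36 of the 42 lay above the latter. Ifit3b (1.19), Ifit3 (1.17) and Oas2 (1.14) varied most, and Irf9 (0.35), Eif2ak2 (0.36) and Ifi35 (0.38) least. Per model, the median SD of the 42 genes was 1.37 in MMTV-PYMT, 1.34 in 9263 and 1 in 2153, against 0.21 in E0771, 0.27 in 2224 and 0.30 in KPB1-A, where it was below that of all genes tested (0.23, 0.33 and 0.31).

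In some models most of the genes peaked in the same library. In 2250, replicate 4 was the highest of 11 libraries for 39 of the 42 genes. In 2153, replicate 2 was the highest of 7 for 34 genes, in 2336 replicate 4 was the highest of 5 for 36 genes, and in T12 replicate 1 was the highest of 3 for 40 genes. MMTV-PYMT replicate 5 was the lowest of 5 libraries for all 42 genes, 9263 replicate 6 was the lowest of 7 for 38 genes, and MMTV-NEU replicate 7 was the lowest of 8 for 33 genes. The peaks were shared less widely in 2225 (16 of the 42 genes in 1 of 10 libraries), in 2208 (20 of 42 in 1 of 12), in 2224 (20 of 42 in 1 of 4) and in KPB1-A (24 of 41 in 1 of 2, where an even division gives 50%). Libraries of a model also share depth scaling and cell content, so the genes are not independent measures.

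Replicates of 3 models fell far apart. In 2153, Ifit1 had 16.5, 21.4, 19.5 and 16.6 CPM in replicates 1 to 4 and 3.86, 4.29 and 3.16 CPM in replicates 5 to 7. Irf7 had 37.3, 56.6, 37.6 and 47.6 CPM and then 10.6, 13.2 and 10.9 CPM in the same libraries. Each library label ends in a number whose meaning is not stated, and it lay below 3000 in replicates 1 to 4 and above 3000 in replicates 5 to 7. Neutrophil markers summed to 233 to 409 CPM in replicates 1 to 4 and to 78.2 to 96.9 CPM in replicates 5 to 7. Endothelial sums (209 to 261 CPM and 169 to 198 CPM) and the low sums of B cell and muscle markers did not overlap either. Macrophage markers overlapped (589 to 1240 CPM and 539 to 791 CPM). Library totals were 29425657 to 82066608 counts in replicates 1 to 4 and 88442400 to 119835287 counts in replicates 5 to 7. The low replicates were thus also the deepest libraries of 2153. The part of these markers or of the library total in the levels was not tested.

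In 9263, Ifit1 had 31.4, 12.6, 24, 9.83, 2.18, 0.723 and 4.73 CPM in replicates 1 to 7. Oas2 had 26, 21.1, 26.2, 17.1, 1.69, 0.405 and 4.12 CPM, so replicates 5 to 7 were again lowest. Macrophage markers summed to 198 CPM in replicate 1, 1320 to 2230 CPM in replicates 2 to 4 and 65.3 to 210 CPM in replicates 5 to 7. Other marker sums were higher in all of replicates 1 to 4 than in replicates 5 to 7, namely fibroblasts (1780 to 11000 CPM and 776 to 1040 CPM), endothelial cells (121 to 498 CPM and 94.7 to 109 CPM) and neutrophils (64.6 to 120 CPM and 35.9 to 59.3 CPM). Library totals were 23394877 to 42701494 counts in replicates 1 to 4 and 73347840 to 116365546 counts in replicates 5 to 7. The part of these markers or of the library total in the levels of the 42 genes was not tested. Replicate 1 therefore combined the highest mean of the 42 genes in this model (5.45) with a low sum of macrophage markers.

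In MMTV-PYMT, Ifit1 had 44.1, 206, 113, 146.5 and 3.63 CPM in replicates 1 to 5, Isg15 had 31.6, 76.4, 59.4, 77.5 and 3.18 CPM, and Bst2 had 32.9, 67.2, 75.9, 57.7 and 12.5 CPM. Replicate 5 was below the others for each. It also had the highest sums of muscle (3900 CPM), fibroblast (3850 CPM), macrophage (1510 CPM), adipocyte (438 CPM) and endothelial (307 CPM) markers of the 5 libraries. Sums of T cell, natural killer cell and conventional dendritic cell markers were highest there too. Those of neutrophils, B cells and plasmacytoid dendritic cells were not. Its epithelial sum lay within the range of the others (5400 CPM against 4120 to 5640 CPM). MMTV-NEU replicate 6, whose muscle sum was 2870 CPM, had the highest mean of the 42 genes among the MMTV-NEU libraries (6.12). MMTV-PYMT replicate 5 also had the highest library total of its model, at 73413205 counts against 39726259 to 51131783 counts in replicates 1 to 4. The part of muscle, of other cells or of the library total in these levels was not tested.

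**Figure D5:**
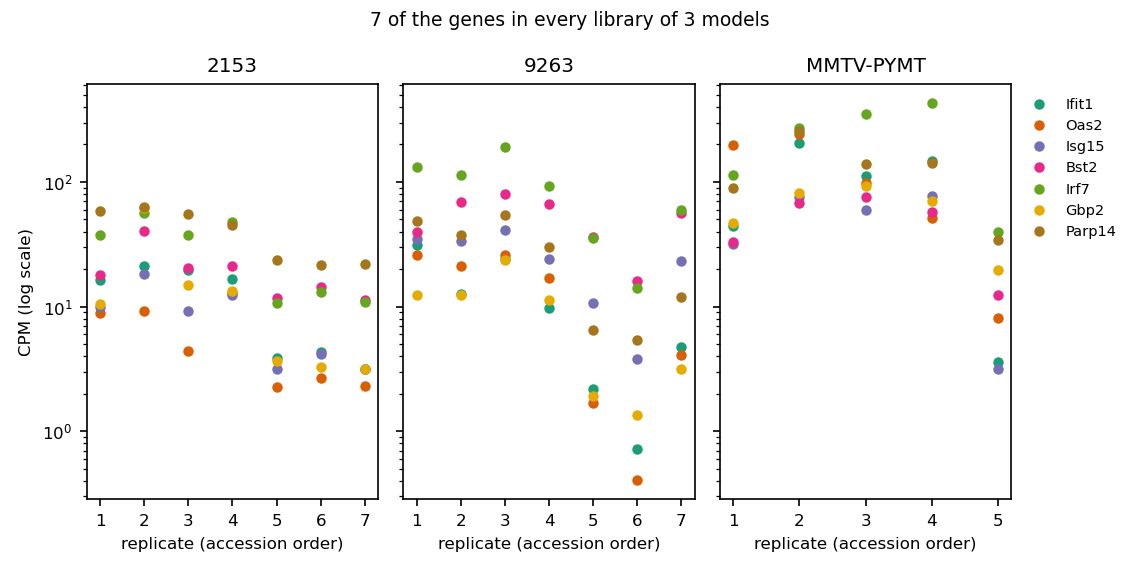
CPM (log scale) of Ifit1, Oas2, Isg15, Bst2, Irf7, Gbp2 and Parp14 in every library of 2153, 9263 and MMTV-PYMT, by replicate. Replicates 5 to 7 of 2153 and 9263 and replicate 5 of MMTV-PYMT lie below the other libraries for most of the 7 genes, and Ifit1 falls to 0.723 CPM in 9263 replicate 6.

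The number in the library labels was examined across models as a term beside the model, without the library that carries no such number. Of the 42 genes, none was higher and 1 (Samd9l, a difference of -0.65 ± 0.20 on the log2 scale, edgeR adjusted p = 0.0201) was lower in libraries numbered 3000 and above, against 8.91% and 6.02% of all genes tested, and 3 of the 42 had an unadjusted p under 0.05. The median difference was -0.23 over the 42 genes and -0.01 over all genes tested. Only 2153, 2208, 2224, 2250 and MMTV-NEU have libraries on both sides of 3000. All numbers in 9263 and MMTV-PYMT lie above 3000, so the term could not address the splits among their replicates. In both of these models the low replicates carried the highest numbers.

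Other genes of the pathway were read from lists that hold none of the 42. Of 21 interferon ligand genes, 3 were measurable enough to be tested. Ifng, interferon gamma, had 0.667, 3.44 and 0.94 CPM in the 3 E0771 libraries (6.41 ± 0.55, adjusted p = 1.44e-15). It averaged 0.236 ± 0.373 CPM in 4T1 (3.34 ± 0.56, adjusted p = 9.52e-07) and 0.211 CPM in T12 (3.18 ± 0.67, adjusted p = 5.82e-05). Replicates 1 to 5 of 4T1 had 0.0384, 0.0739, 0.901, 0.114 and 0.054 CPM, so that mean rested largely on replicate 3. The other models averaged 0.0452 CPM or less, with single libraries of up to 0.189 CPM (2153 replicate 2). Ifng was at 0 in all libraries of 2225, KPB1-A and MMTV-PYMT. Ifnb1, interferon beta, was 0.256, 0.322 and 0.418 CPM in E0771 (3.94 ± 0.53, adjusted p = 1.10e-09) and averaged 0.105 CPM in 2250 (2.12 ± 0.42, adjusted p = 1.14e-05), and it was lower in MMTV-NEU (-2.05 ± 0.88, adjusted p = 0.0371). Counts of these ligands were low, so their absence was not shown in any model.

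Receptor and signalling genes moved less than the 42. Of 15 such genes, 7 were higher and 2 lower in E0771 (29.4% and 26.9% of all genes tested), with a median difference of 0.31, and in 2225 and 2336 2 were higher and 12 lower each (26.8% and 25.4% of all genes were lower), with medians of -0.70 and -0.66. Ifnar1, a type I receptor chain, did not pass in E0771 (0.06) or MMTV-NEU (-0.02) and was lower in 2250 (-0.63 ± 0.05, adjusted p = 5.53e-17). Of 18 genes that sense nucleic acid, 15 were higher and 1 lower in E0771, 1 higher and 14 lower in 2225, and 2 higher and 13 lower in 2336. Cgas (listed as Mb21d1) averaged 1.21 CPM in 2225, 2.34 CPM in 2336 and 2.65 CPM in 9263, and 9.63 CPM or more in the other 10 models.

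A further 42 interferon-induced genes outside the list followed it in part. Of these, 39 were higher and none lower in E0771 (median 2.20), 33 higher and 3 lower in 4T1 (1.48), none higher and 38 lower in 2336 (-2.07), and 1 higher and 37 lower in 2225 (-1.57). In MMTV-NEU the split was 24 higher and 7 lower (0.46) and in MMTV-PYMT 19 higher and 8 lower (0.29). Over all genes tested 34% were higher and 28.4% lower in MMTV-NEU and 31% and 20.5% in MMTV-PYMT, so the share of lower genes was near or under the background in both. Cxcl10, a chemokine that attracts T cells, was 107 ± 18.4 CPM in E0771 (4.60 ± 0.42, adjusted p = 8.35e-16) and 0.886 ± 0.674 CPM in MMTV-NEU, where it was lower than in the other models (-2.92 ± 0.55, adjusted p = 3.19e-06). Cxcl9, a related chemokine, was lower in MMTV-NEU (-1.69 ± 0.64, adjusted p = 0.0177) and MMTV-PYMT (-2.10 ± 0.82, adjusted p = 0.0265) as well. In these 2 models most of the 42 genes were thus high beside low Cxcl9.

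Markers of immune cells differed among the models with high levels. T cell markers (14 genes) were higher for 12 genes and lower for none in E0771, and for 12 and 1 in 4T1, but higher for none and lower for 7 in MMTV-PYMT, where 20.5% of all genes tested were lower. Their sums were 94.8 to 250 CPM in E0771, 127 to 207 CPM in 4T1, 14.9 to 43.3 CPM in MMTV-NEU and 8.14 to 57 CPM in MMTV-PYMT. Macrophage markers (12 genes) summed to 5660 to 6670 CPM in T12, a median of 4300 CPM in 4T1, 2210 to 4110 CPM in E0771, 388 to 1300 CPM in 2250, 311 to 1070 CPM in MMTV-NEU and 282 to 639 CPM in 2225. Of them, 10 were higher in T12 and 11 in 4T1 with none lower, none was higher and 4 were lower in 2250, and none was higher and 7 were lower in MMTV-NEU. Over all genes tested 24.4% were higher in T12 and 25.5% in 4T1, and 27.7% were lower in 2250 and 28.4% in MMTV-NEU, so the count of lower genes in 2250 was near the background. Natural killer cell markers (9 genes) summed to 21.1 CPM or more in each library of T12, 4T1 and E0771 and to at most 15.2 CPM in every other library. No gene of these 3 lists was at 0 throughout a model. The share of these cells in the levels of the 42 genes was not tested.

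Genes outside the list with the most similar pattern were ranked by Pearson's r with the mean of the 42, as a description. Over deviations from the model mean in 82 libraries, the 10 closest included Tor3a (0.944), Oas1g (0.917), Herc6 (0.889), Apol9a (0.884), Cxcl10 (0.881), Ddx60 (0.875), Gbp6 (0.873), Phf11d (0.865) and Apol9b (0.861). Over the 13 model means they were Oas1b (0.968), Oas1g (0.956), Tor3a (0.955), Nmi (0.953), Lgals3bp (0.95), Gm6548 (0.945), Apol9b (0.931), Apol9a (0.931), Slfn2 (0.929) and Slfn10-ps (0.926). Oas1g is a close copy of Oas1a, so their reads may be split between them, and the libraries share scaling and cell content. Within the list, Ifitm3 was the least like the other 41 genes over the deviations (0.602).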

How the data were processed

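RNA-seq of 82 untreated tumours was read from the deposited gene table, which holds the authors' expected counts (estimated counts per gene, 85.5% of values whole). STAR, SAMtools, Picard and Salmon and the build mm10 are named without versions, per the submitters' processing notes. Strand was not stated, so overlapping genes (Parp9 and Dtx3l, Igtp and Irgm2, Irf7 and Phrf1, Irf9 and Rnf31) are uncertain, as are close copies (Ifit3 and Ifit3b, Oas1a and Oas1g, the Gbp genes). A second deposited table, a rescaled copy, was not used. Counts were rounded and tested in R 4.3.3 with edgeR 4.0.16. The filter on low genes (filterByExpr, groups set to models, 10 counts and a total of 15 as minima) left 22847 genes, including all 42. The fit used TMM factors (0.851 to 1.13) and a robust quasi-likelihood fit of 1 mean per model over 82 libraries (69 residual degrees of freedom). Each model was compared with the mean of the other 12, 3 pairs were compared directly, and p-values were adjusted over all genes tested, with a call at 0.05. Each SE was obtained by dividing the log2 difference by the root of its F value. Levels are TMM-scaled CPM and log2 CPM has a prior count of 2. The series' design text calls the libraries biological replicates, but no label names the animal or donor tumour of a library, so p-values measure the spread among libraries. Replicates are numbered in accession order. Depth limits low genes: 3 counts were taken as the floor, which covers counting error only. Marker sums leave out the 42 genes. The scripts were tested on simulated data.

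The 42 genes and all lists were chosen with earlier results of these data known. Any of the 42 could be named. Results for 1 gene outside the 42 are not reported here. Full statistics were given for up to 3 genes each way per model, 5 per pair, and Ifit1, Oas2, Isg15, Bst2, Irf7, Gbp2 and Parp14 were followed across models. Alternatives were DESeq2 1.42.0 and its size factors, no filter, the library number (3000 and above or below) as a term, a same-strain reference, the median in place of the mean, a prior count of 0.5, and leaving out each library of models with 2 to 5. Leaving out libraries with over 1000 CPM of muscle markers was chosen after seeing the data. Positions are from GENCODE M21 and promoter windows from RefSeq (GRCm38.p6).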

Additional observations from a re-analysis of the deposited data

Results flagged for a closer look

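The log2 CPM of Ifit1, Oas2, Isg15, Bst2, Irf7, Gbp2, Parp14 and the mean of the 42 genes was examined for single libraries that stand apart in the 8 models with 4 to 10 libraries, 64 groups in all. Dixon's ratio at the 95% level marked 3 values, and chance marks about 1 in 20. Ifit1 was low in MMTV-NEU replicate 7 at 2.86, with the nearest other library at 4.91. Isg15 was low in MMTV-PYMT replicate 5 at 1.68, with the nearest at 4.98. Irf7 was high in MMTV-NEU replicate 6 at 8.75, with the nearest at 7.03.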

How the results depend on the processing

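No paired analysis was possible because replicate numbers follow accession order and pair no libraries across models. Of 136 named combinations of gene and comparison, 782 refits with an alternative setting kept the direction, and 750 kept the call. Of 192 alternative counts, 163 stayed within 1.5 times the reported one. The F test count did too. The median SD of the listed genes within models was 0.806 as reported, 0.807 with a prior count of 0.5 and 0.814 with DESeq2 size factors. Whether the full order of models holds under other settings is not shown here. With the other models of the same strain as reference, 2153 had 5 genes higher and 6 lower, 2224 1 higher, 2336 0 higher, 9263 18 higher and 1 lower, MMTV-NEU 0 lower, and T12 29 higher and 1 lower. No such reference exists for E0771. Shares of all genes tested were not kept for the counts under alternative settings. With the library number as a term, 2225 had 1 gene higher, 9263 4 lower, T12 9 higher and 1 lower, and 2250 had 1 lower than 2208. Without the 9 muscle-rich libraries, 2224 had 0 higher, 2336 0 higher, 9263 12 lower, MMTV-NEU 3 lower, T12 1 lower, MMTV-PYMT 23 higher than MMTV-NEU, and 2250 1 lower than 2208. With DESeq2, 2336 had 0 higher, E0771 1 lower, MMTV-NEU 2 lower, MMTV-PYMT 1 lower, and 1 lower than MMTV-NEU. No filter gave 0 higher in 2336 and 0 lower in T12, and DESeq2 size factors gave 0 lower in T12. Leaving out single libraries gave 1 to 2 higher in 2224, 0 to 1 higher in 2225, 0 to 1 higher in 2336, 22 to 34 lower in KPB1-A, 9 to 18 higher and 0 to 2 lower in T12, and 2 to 20 higher and 0 to 1 lower in MMTV-PYMT than in MMTV-NEU. The causes were not tested. KPB1-A (n = 2), E0771 and T12 (n = 3) rest on few libraries.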

Other observations

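Parp12 lies on chromosome 6 (39086410 to 39118349, mm10), and of 18 other tested genes within 500 kb of it 11 were higher, 1 was lower and 6 did not pass in 2250 against the other models. Over all genes tested, 32.1% were higher and 27.7% lower in that comparison. Hipk2, a nuclear kinase, differed by 1.45 ± 0.18 (adjusted p = 3.64e-11), Kdm7a, a histone demethylase, by 1.13 ± 0.14 (adjusted p = 3.03e-11), Slc37a3 by 0.92 ± 0.06 (adjusted p = 1.05e-22) and Mkrn1, a ubiquitin ligase, by 1.39 ± 0.08 (adjusted p = 1.31e-26), all by edgeR. Parp12 differed more than these, by 2.97 ± 0.14. Dennd2a (-1.71 ± 0.19, adjusted p = 2.54e-12) was lower. Tbxas1 (-0.56) did not pass on one side of Parp12, nor did Adck2 (0.16), Ndufb2 (0.04), Braf (0.14), 8030453O22Rik (-0.04) and Gm42420 beyond Dennd2a or overlapping it on the other. The neighbours were chosen by position after the value of Parp12 was seen, and DNA copy number was not analysed here.

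Ifi44l had 25 counts in total over the 18 FVB and C57BL/6 libraries and 28231 in the 64 BALB/c libraries, whereas Ifi44 beside it had 76516 and 186935. Sequence variants between the strains and the annotation of this gene were not analysed here.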
